A study of Lotus japonicus with 6 samples.

Results

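The transcripts described here are the 100 that held the steadiest share of the reads across all 6 libraries of a study of Lotus japonicus root nodules. They were chosen by their measured values among the 46398 transcripts of the table: whole-number counts in all 6 libraries, a mean of at least 20 CPM (the count per 1000000 counts summed over its library), and the lowest coefficient of variation (CV, the SD over the 6 CPM values divided by their mean). 11626 transcripts had whole counts throughout, 3166 of these reached the abundance minimum and are called eligible here, and the 100 with the lowest CV became members. All 100 passed the filter on low counts. Since the 6 CPM values of both groups chose the members, their small CVs and small group differences are a description and were not tested.

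Lotus japonicus is a model legume whose root nodules house nitrogen-fixing rhizobia. The 6 libraries came from nodules of plants in the MG-20 background at 3 weeks post-inoculation: 3 libraries from a line labelled NAC-OE, which the study's title ties to ectopic expression of the transcription factor NAC094, and 3 from the control line GUS-OE, which overexpresses the reporter GUS. The study asked how NAC094 expression, linked by the title to early nodule senescence, changes the nodule transcriptome. The sources used here do not give the promoter of each construct, the number of transformation events behind each line or the number of plants behind each library, so p-values measure only how these samples vary, and that variation may be technical. The identifiers of the table were not paired with gene names or descriptions, so nodule marker genes, the NAC094 transcript and the functions of the members were not analysed here, and no sequence is shown.

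Transcripts that keep a constant share of the mRNA are used as reference genes, against which the level of a gene of interest is expressed in quantitative PCR. Genes of basic cell maintenance, such as those for ubiquitin, elongation factors and cytoskeletal proteins, are common choices in plants, and their constancy has to be checked in each tissue and treatment. A nodule that senesces loses its symbiotic cells and their dominant transcripts and gains transcripts of degradation and remobilisation. A share of the reads is a relative measure. In bulk nodule RNA, fewer cells of a type and less RNA per cell cannot be told apart.

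Total counts were between 35531188 and 39513316 per library. Across the whole table, 62.2% of the 46346 transcripts tested were called different between the groups (edgeR quasi-likelihood test with TMM scaling, Benjamini-Hochberg adjusted p under 0.05). Of all counts, the 100 members together held 0.92% ± 0.014 in the controls and 0.90% ± 0.041 in NAC-OE (SD, n = 3). The 3166 eligible transcripts held 32.5% ± 0.63 and 30.4% ± 0.80 (SD, n = 3).

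The CVs of the members ran from 2.17% to 8.04% with a median of 6.63%, against a median of 33.9% over the eligible transcripts. The highest of the 6 values of a member was between 1.06 and 1.28 times its lowest, with a median of 1.19 times, and for the eligible transcripts the median was 2.31 times.

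Lj2g3v2771110.1, of 5634 bases and with its locus on chromosome 2 by its identifier, had the lowest CV, at 2.17%. Its values were 207, 213 and 204 CPM in GUS-OE replicates 1, 2 and 3 and 210.5, 212 and 217 CPM in NAC-OE replicates 1, 2 and 3. The 2 groups overlapped, and no library stood apart. The next member, Lj4g3v3113060.1, of 1217 bases on chromosome 4, was close to the abundance minimum and had a CV of 3.98%. It measured 19.1, 19.9 and 20.3 CPM in GUS-OE and 19.4, 21.1 and 20.9 CPM in NAC-OE. Again the groups overlapped, although the highest pair of values lay in NAC-OE.

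Lj1g3v0130120.1, of 4194 bases on chromosome 1, also had a CV of 3.98%, with 76.0, 71.6 and 73.5 CPM in GUS-OE and 70.7, 75.8 and 78.5 CPM in NAC-OE. Lj4g3v2821260.1, of 914 bases on chromosome 4, had 272, 297 and 272 CPM in GUS-OE and 293, 275 and 272 CPM in NAC-OE. Its group means were the closest of those named, at 280.3 ± 14.4 and 280.2 ± 11.5 CPM (SD, n = 3), and 1 library of each group stood above the rest. Lj2g3v3022900.1, of 1194 bases on chromosome 2, had 36.8, 35.6 and 37.6 CPM in GUS-OE and 37.3, 33.6 and 34.9 CPM in NAC-OE. Lj6g3v2192350.1, of 3074 bases on chromosome 6, had 61.6, 56.0 and 61.7 CPM in GUS-OE and 58.1, 62.8 and 61.3 CPM in NAC-OE, so its lowest value was a control library. In each of these transcripts the groups overlapped.

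**Figure D1:**
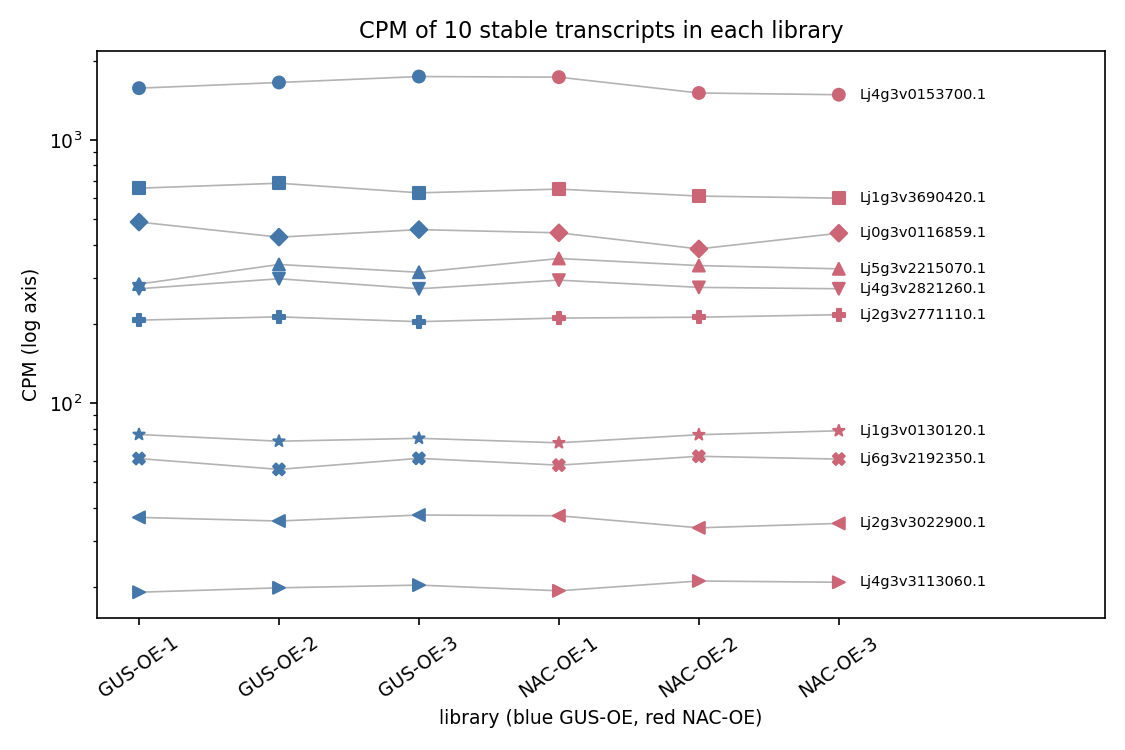
CPM (log axis) of the 6 members with the lowest CV and the 4 with the highest mean CPM in each of the 6 libraries, 1 symbol per library (blue GUS-OE, red NAC-OE). Lines join the values of 1 transcript and carry no order. Lj2g3v2771110.1 stays between 204 and 217 CPM, and Lj4g3v0153700.1, the most abundant member, between 1486 and 1742 CPM.

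The member with the most reads was Lj4g3v0153700.1, of 2204 bases on chromosome 4, the transcript ranked 34 of the whole table by mean CPM. It had 1574, 1654 and 1742 CPM in GUS-OE and 1733, 1509 and 1486 CPM in NAC-OE. NAC-OE replicate 1 lay within the range of the controls, and the other NAC-OE libraries lay below all of them. It was followed by Lj1g3v3690420.1, of 1745 bases on chromosome 1, with 656, 685 and 629.8 CPM in GUS-OE and 651, 612 and 601 CPM in NAC-OE. Lj0g3v0116859.1, of 2265 bases on sequence not placed on a chromosome, had 488, 427 and 456 CPM in GUS-OE and 444, 386 and 442 CPM in NAC-OE. Lj5g3v2215070.1, of 1539 bases on chromosome 5, had 283, 336 and 314 CPM in GUS-OE and 355, 333 and 324 CPM in NAC-OE. Here the control replicate 1 was the lowest of all 6. These 4 had CVs of 6.85%, 4.83%, 7.66% and 7.45%.

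Per transcript length, on the deposited FPKM scale, Lj4g3v0153700.1 also had the highest mean level of the members, at 732 FPKM. The members spanned 9.64 to 732 FPKM with a median of 27.2, against a median of 32.2 FPKM over the eligible transcripts.

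The 2 members with the highest ratio of NAC-OE to GUS-OE were Lj0g3v0255249.1 and Lj3g3v1670380.1. The former had 38.4, 39.4 and 37.9 CPM in GUS-OE and 43.0, 43.0 and 44.0 CPM in NAC-OE, a ratio of 1.12 between tight groups that did not overlap. The latter had 67.4, 69.1 and 68.8 CPM in GUS-OE and 83.0, 74.0 and 73.2 CPM in NAC-OE, also without overlap and also with a ratio of 1.12. At the other end Lj5g3v2113480.1 had 65.2, 63.6 and 61.8 CPM in GUS-OE and 58.6, 52.8 and 56.2 CPM in NAC-OE, a ratio of 0.88. Lj0g3v0072129.1 had 81.7, 85.1 and 82.8 CPM in GUS-OE and 76.8, 70.6 and 72.5 CPM in NAC-OE, with the same ratio of 0.88. A low CV over 6 libraries thus admitted members whose groups did not overlap, at ratios between 0.88 and 1.12.

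The mean was higher in NAC-OE for 43 members and higher in GUS-OE for 57. The log2 difference of the group means (NAC-OE minus GUS-OE, in CPM by library size) ran from -0.19 to 0.17 with a median of -0.014, against a median of -0.046 over the eligible transcripts. For 15 members the groups did not overlap. The same held for 68.6% of all transcripts tested and 78.6% of the eligible ones, and nothing is read from this since the rule used these values. NAC-OE lay wholly above GUS-OE in 5 members, against 43.3% of all transcripts tested and 37.6% of the eligible ones. Picked out after their values were seen, they were Lj0g3v0309019.1, Lj5g3v1037120.1, Lj0g3v0255249.1, Lj0g3v0320179.1 and Lj3g3v1670380.1. NAC-OE lay wholly below in 10, against 25.3% of all transcripts tested and 40.9% of the eligible ones.

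The limit of the list fell in a dense part of the ranking. The last members inside it were Lj3g3v1340420.1, with a CV of 7.98%, and Lj5g3v0380100.1, with 8.04%. The first outside were Lj1g3v5062760.1 and Lj5g3v1262960.1, both with 8.04% to the same rounding. Lj5g3v0380100.1 had 47.2, 54.8 and 48.2 CPM in GUS-OE and 56.3, 47.5 and 48.4 CPM in NAC-OE, with 1 high library in each group. Lj1g3v5062760.1, just outside, had 20.6, 22.3 and 20.1 CPM in GUS-OE and 24.7, 20.4 and 21.1 CPM in NAC-OE.

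The libraries did not contribute equally to the remaining spread. NAC-OE replicate 2 was the lowest library for 44 members and the highest for 7. In it the members stood at a median of 94.7% of their own mean over the 6 libraries. The other 5 libraries had medians from 99.2%, in GUS-OE replicate 3, to 103%, in NAC-OE replicate 1. Over the eligible transcripts NAC-OE replicate 2 was also the lowest library most often, for 38.0% of them. GUS-OE replicate 2 was the highest library most often, for 28 members and for 23.5% of the eligible transcripts. Single values reached from 85.1% of a member's mean, in NAC-OE replicate 2, to 115% in NAC-OE replicate 1.

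**Figure D2:**
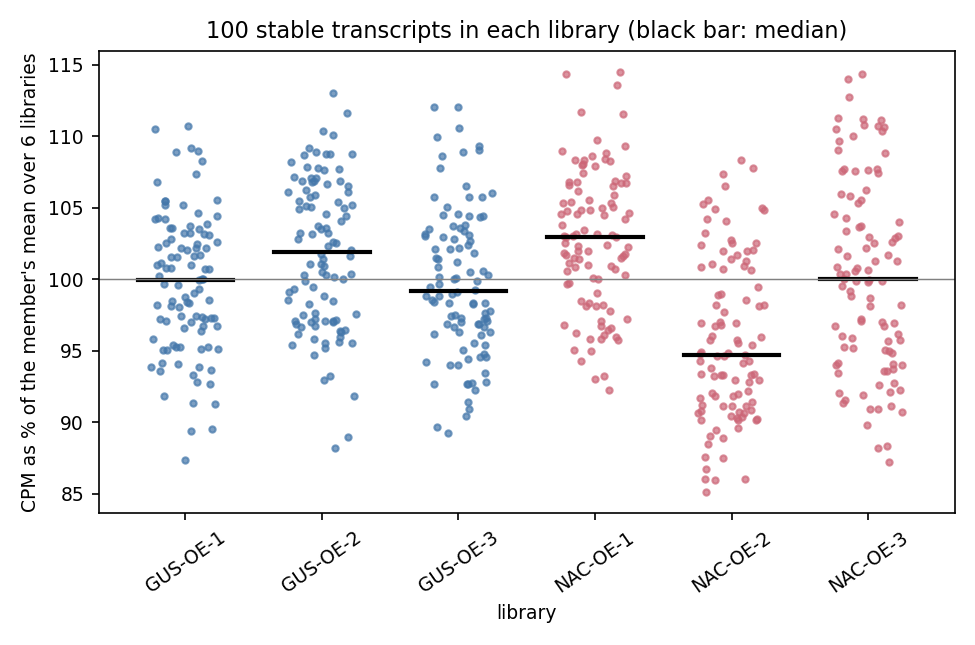
CPM of each of the 100 members as a percentage of its mean over the 6 libraries, 1 point per member in each library (blue GUS-OE, red NAC-OE), with the median as a black bar. The medians are between 99.2% and 103% in 5 libraries and 94.7% in NAC-OE replicate 2.

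Within groups the members varied less in the controls. The median CV over 3 libraries was 4.40% in the controls and 6.67% in NAC-OE, and NAC-OE had the larger CV in 67 of the 100. Over the eligible transcripts these medians were 9.29% and 13.7%, and NAC-OE had the larger CV in 64.6%, so the members shared this tilt with the rest. Selected after its values were seen, Lj4g3v2528130.1 had the widest spread among controls, with 72.0, 57.5 and 66.6 CPM in GUS-OE against 64.6, 68.3 and 62.0 CPM in NAC-OE. Likewise chosen, Lj1g3v3904180.1 had the widest spread in NAC-OE, with 42.6, 36.5 and 46.8 CPM against 43.4, 42.5 and 42.5 CPM in GUS-OE.

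A small CV within each group did not by itself make a transcript steady between groups. Of the eligible transcripts, 312 had a CV of at most 8% within each group, and 60 of these, or 19.2%, were members. The list holds only 100 of the 3166 eligible transcripts, so most of the 312 had to lie outside it. Among the 312, a mean in NAC-OE of at least 2 times that in GUS-OE was found for 36 and the opposite for 36, and the median absolute log2 difference was 0.59. The quartiles of the log2 difference were -0.53 and 0.65 among the 312, against -0.83 and 0.83 over the eligible transcripts. The other 40 members had a CV above 8% in at least 1 group but little difference between the group means.

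Counting error was a small part of the spread for most members. The CV that counting alone would give, from the counts behind each value, was between 0.41% and 3.64% with a median of 2.33%. The measured CV of the members was a median of 2.82 times that value, against 15.1 times over the eligible transcripts. 18 members were within 2 times and 4 within 1.5 times of it, and these 4 were scarce: Lj4g3v3113060.1, Lj4g3v3032690.1, Lj0g3v0309019.1 and Lj0g3v0128609.1, the last 3 named after their values were seen. Lj4g3v3032690.1 had 28.7, 31.8 and 28.1 CPM in GUS-OE and 30.2, 30.0 and 29.6 CPM in NAC-OE, with the 3 NAC-OE values inside the control range. Lj0g3v0128609.1 had 20.7, 21.2 and 20.1 CPM in GUS-OE and 20.6, 21.6 and 18.9 CPM in NAC-OE. For these 4 the depth of the libraries limits how small a CV could have been seen. The most abundant member, Lj4g3v0153700.1, had a CV of 6.85% against 0.41% from counting.

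**Figure D3:**
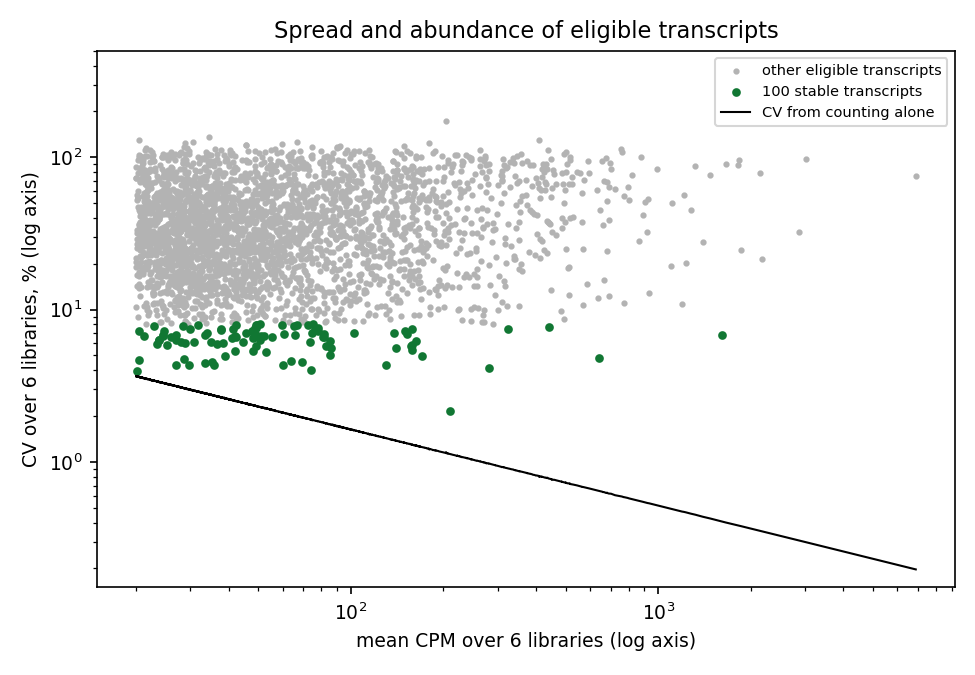
CV over the 6 libraries (%) against mean CPM (both log axes) for the 100 members (green) and the other eligible transcripts (grey). The black line is the CV from counting alone. Members lie in a band up to 8.04% at nearly all abundances, and none reaches the line.

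Whether the members were steady depended on the scaling of the libraries. The rule divided by the summed counts. TMM (trimmed mean of M-values) instead sets library factors so that the bulk of transcripts shows no average difference, and its factors were 0.852 to 0.946 in GUS-OE and 1.05 to 1.18 in NAC-OE. On TMM-scaled values all 100 members had lower means in NAC-OE, with log2 differences from -0.52 to -0.16 and a median of -0.35. Over the eligible transcripts the median on this scale was -0.41, so the downward shift was not particular to the members. The median CV of the members was then 15.1% in place of 6.63%, against 36.6% over the eligible transcripts on the same scale. Lj2g3v2771110.1, the steadiest by library size, had a CV of 12.5% on this scale.

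Ranked anew on TMM-scaled values, the list of 100 kept 3 of the members. These were Lj0g3v0067809.1, Lj0g3v0255249.1 and Lj0g3v0320179.1, which also stayed under RLE (median of ratios) and upper-quartile scaling and in FPKM, and all 3 lie on unplaced sequence. Lj0g3v0067809.1 had 23.6, 21.8 and 21.8 CPM in GUS-OE and 23.9, 23.6 and 25.5 CPM in NAC-OE by library size, a CV of 5.98%, and 8.31% with TMM. Lj0g3v0320179.1 had 34.6, 36.2 and 36.3 CPM in GUS-OE and 40.2, 37.0 and 41.9 CPM in NAC-OE, a CV of 7.31%, and 8.65% with TMM. Lj0g3v0255249.1, given above, had 6.55% and 8.19%. By library size all 3 had a higher mean in NAC-OE, and by TMM all 3 had a lower one.

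RLE kept 4 members, the same 3 and Lj3g3v1670380.1, and upper-quartile scaling kept 30. The transcripts that TMM ranked as steadiest had, by library size, higher means in NAC-OE throughout, with log2 differences from 0.12 to 0.53. The lists of the 2 scalings thus met only at the upper edge of the members' range. By library size 197 eligible transcripts had a CV of at most 10%, and with TMM 133 of 3164 did. No spike-in or cell count is among the values used here, so which scaling follows the amount of a transcript per nodule or per cell was not tested.

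**Figure D4:**
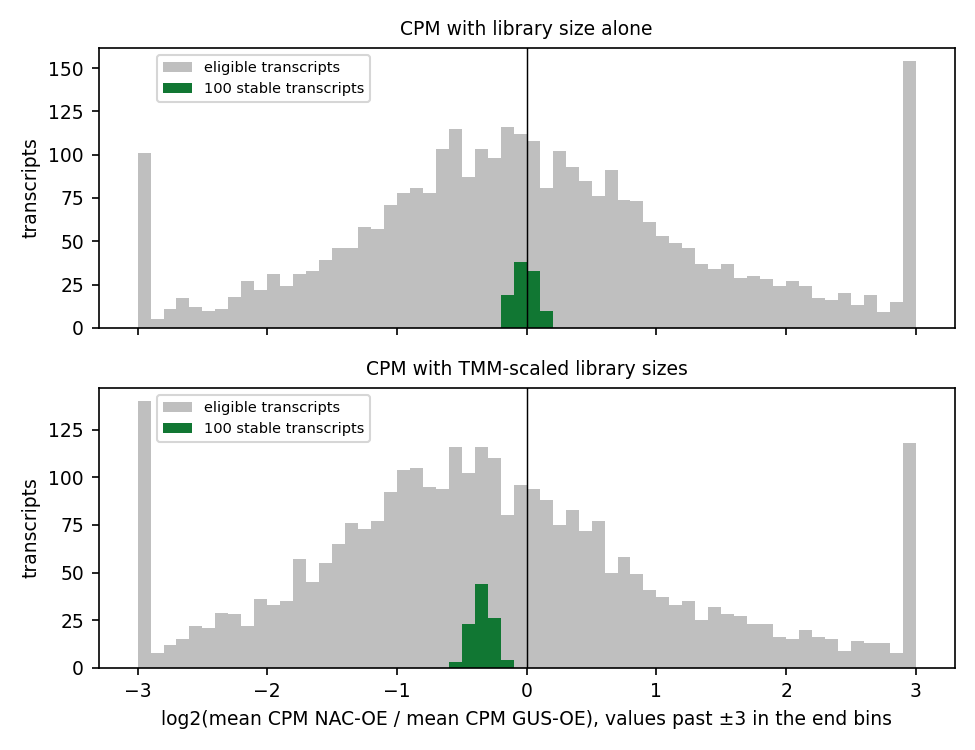
Histograms of the log2 ratio of mean CPM, NAC-OE over GUS-OE, for the eligible transcripts (grey) and the 100 members (green), with library size alone (top) and with TMM-scaled library sizes (bottom); values past ±3 are in the end bins. The members lie between -0.19 and 0.17 on the first scale and between -0.52 and -0.16 on the second.

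Kinds of transcripts in the table differed in their balance between the groups. By library size the median log2 difference between groups was 0.34 over all transcripts with counts in both groups, 0.43 over those with fractional counts, and 0.069 over those with whole counts. It was -0.046 over the eligible transcripts, which are whole and abundant. The rule itself held the members' median, -0.014, near 0, so nothing is read from its closeness to that value. With TMM factors computed over transcripts with whole counts alone, a choice made after the results were seen, 68 of the members stayed in the list. The median log2 difference over the 100 members was then -0.023, against -0.056 over the eligible transcripts. With factors computed over transcripts with fractional counts alone, 0 stayed, and the median over the 100 members was -0.43, against -0.51 over the eligible transcripts.

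In the edgeR fit with TMM scaling 0 members were called higher in NAC-OE and 43 lower (Benjamini-Hochberg adjusted p under 0.05), beside 31.5% higher and 30.7% lower of all transcripts tested. At an unadjusted p under 0.05 the numbers were 0 and 62, beside 33.4% and 32.6% of all transcripts. DESeq2 called 0 and 48, beside 31.1% and 30.3% of all, and limma-voom 0 and 48, beside 31.7% and 31.4%. With library size alone edgeR called 0 and 0, beside 39.9% and 22.3% of all transcripts, and 0 and 0 at an unadjusted p under 0.05, beside 42.0% and 24.0%. The 43 fell to 34 without GUS-OE replicate 1, 21 without GUS-OE replicate 2, 9 without GUS-OE replicate 3, 6 without NAC-OE replicate 1, 21 without NAC-OE replicate 2 and 22 without NAC-OE replicate 3. In the same order, 28.0%, 28.9%, 27.1%, 26.0%, 27.4% and 28.9% of all transcripts were called lower in these fits. Because the same libraries chose the members, these counts describe the scaling and support nothing about the transcripts.

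A further description came from lists built on 5 libraries and read in the sixth. The criterion of whole counts still used all 6 libraries. Each list was also chosen on the other libraries of the left-out library's own group. A small deviation in the sixth was thus largely set by the choice, and it is not a test of steadiness. In the library left out, the listed transcripts deviated from their mean over the other 5 by a median absolute log2 ratio of 0.076 to 0.18. Over the eligible transcripts, whose values also hold their differences between the groups, the same quantity was 0.43 to 0.57. In the libraries that had been used the listed transcripts deviated by 0.050 to 0.068. These libraries chose the lists and also entered the mean, so their smaller deviation was set in advance and nothing is read from it. The deviation in the left-out library was smallest for GUS-OE replicate 3, at 0.076, where 97 of the 100 listed transcripts lay within 20% of the mean of the others. It was largest for NAC-OE replicate 2, at 0.18, where 81 lay within 20% and 20 lay above the mean of the others. The fewest within 20%, 79, were found for GUS-OE replicate 2. Among the eligible transcripts between 27.2% and 35.3% lay within 20%.

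**Figure D5:**
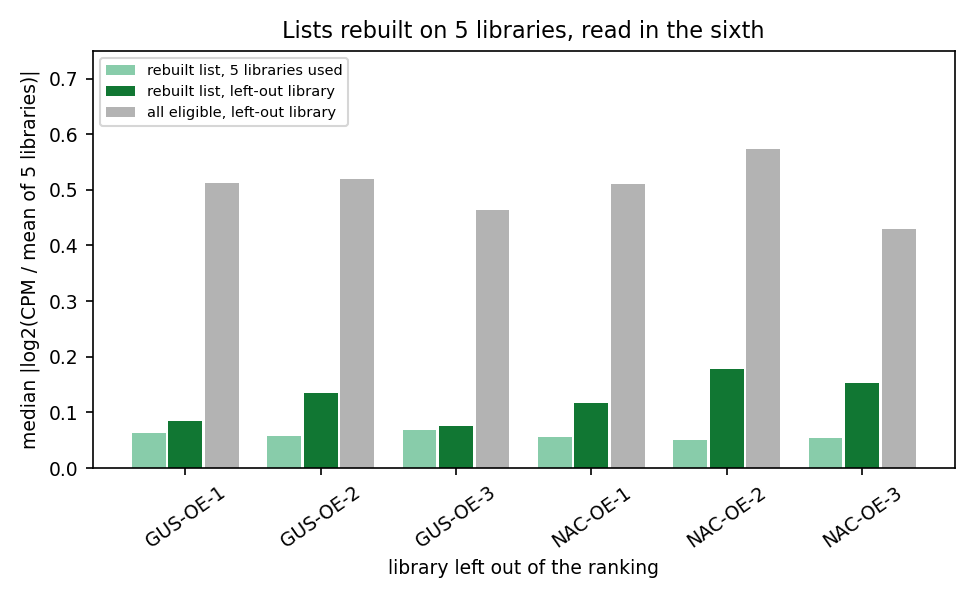
Median absolute log2 ratio of CPM to the mean of 5 libraries, for lists of 100 rebuilt without the library named on the x axis. Bars show the list in the 5 libraries used (light green, 0.050 to 0.068), the list in the left-out library (dark green, 0.076 to 0.18) and all eligible transcripts in the left-out library (grey, 0.43 to 0.57). The libraries used chose the lists and entered the mean, so the light green bars are low by construction.

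Each rebuilt list shared between 63 and 87 transcripts with the members, with 63 when GUS-OE replicate 2 or NAC-OE replicate 2 was left out. 41 members were in all 6 rebuilt lists and had CVs up to 6.75% with a median of 5.37%. Among them were Lj2g3v2771110.1, Lj1g3v0130120.1, Lj4g3v2821260.1, Lj2g3v3022900.1, Lj6g3v2192350.1 and Lj1g3v3690420.1. Lj4g3v3113060.1, second in the ranking, was in 4 of the 6, and Lj5g3v0380100.1, the last member, in 1. The former had a mean of 20.1 CPM over all 6 libraries. Each rebuilt list applied the minimum of 20 CPM anew to its own libraries, so this member could leave a list by abundance alone. In all, 19 members were in at most 2 of the 6 lists.

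Length and position were not used by the rule. The lengths of the members, derived from counts and FPKM, ran from 598 bases (Lj1g3v4955240.1) to 6560 bases (Lj6g3v1629740.1), with a median of 1754 against 1597. Models under 1000 bases made up 11% of the members and 20.7% of the eligible transcripts. The mean CPM of the members had a median of 49.0, against 48.0. In 5 equal classes of the eligible transcripts by mean CPM there were 17, 17, 26, 23 and 17 members, from the scarcest class to the most abundant. Every member was the only transcript of its locus in the table, as were 99.1% of the eligible transcripts, so no other isoform of a member's locus could be described.

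By the digit of their identifiers the members were spread over chromosomes 1 to 6 and unplaced sequence. Chromosome 4 held 22% of the members and 13.8% of the eligible transcripts, or 5.03 members per 100 eligible. The lowest rates were 1.73 per 100 on chromosome 6 and 1.90 per 100 on chromosome 3, and unplaced sequence had 3.06. No test was made between chromosomes.

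One pair of members lay next to each other in identifier order, and it was picked out after its values were seen. On chromosome 2, Lj2g3v0855270.1 had 57.8, 59.7 and 56.9 CPM in GUS-OE and 55.9, 50.3 and 51.7 CPM in NAC-OE. Its neighbour Lj2g3v0855280.1 had 53.0, 53.6 and 52.6 CPM in GUS-OE and 47.8, 45.7 and 51.3 CPM in NAC-OE. In both the NAC-OE values lay below all controls, with the lowest in NAC-OE replicate 2, and the log2 difference of both was -0.14 by library size.

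Transcripts beside the members changed about as often as the rest. The nearest loci on either side of the 78 members on chromosomes 1 to 6 held 207 tested transcripts that were not members. Of these, 21 were themselves eligible and were left out of the list by the rule on their own CV, so for them the rule was not blind to the values. The others did not meet the criteria of whole counts and abundance and were never ranked. Of all 207, with the 21 included, 53 rose and 82 fell in NAC-OE (edgeR with TMM scaling, adjusted p under 0.05). Thus 65.2% were called, beside 62.9% of all transcripts tested on those chromosomes. The share called among neighbours is thus near the background and is no result about the members. By direction, 25.6% of the neighbours were called higher and 39.6% lower, beside 30.9% and 31.9% of all transcripts on those chromosomes. With library size alone 72 neighbours were called higher and 58 lower, or 34.8% and 28.0%, beside 39.5% and 23.3% of all, so the balance of rises and falls among the neighbours turned with the scaling. The median absolute log2 fold change was 0.78 among neighbours, 0.87 among neighbours of the other eligible transcripts and 0.93 among all. Among the 72 neighbours with whole counts 58.3% were called, against 65.8% of the whole-count neighbours of other eligible transcripts. Over all 207 neighbours the gap had the opposite sign, with 65.2% called against 62.8% of the neighbours of other eligible transcripts. Whether either gap exceeds sampling was not tested.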

How the data were processed

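Per the labels' protocols, total RNA from nodules was made into libraries with a NEBNext Ultra II RNA kit. Reads were processed with HISAT2, featureCounts and fastp 0.22.0, per the submitters' processing notes. Settings, genome build, annotation and strand use were not given in the sources used here, and without strand an antisense neighbour cannot be told apart. Per the file headers, the table deposited by the authors holds an estimated count, which need not be whole, and an FPKM for each transcript and library. A RefSeq table of 40429 genes of the LjGifu assembly shared 0 identifiers with it.

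CPM was the count over the summed counts of the library (35531188 to 39513316). A count was taken as whole within 1e-09. Ranking was done in Python 3.11.15 with pandas 2.3.3. Lengths follow from count, FPKM and a library total 0.15% to 0.32% above the summed counts, to within 2.4 bases for members. For tests, counts were rounded and fitted with edgeR 4.0.16 in R 4.3.3 (glmQLFit and glmQLFTest, robust, TMM, filterByExpr with minimum count 10, group alone), adjusted over 46346 transcripts at a threshold of 0.05; DESeq2 1.42.0 and limma 3.58.1 (voom) were alternatives. The ranking and the edgeR script were tested on simulated data. Chromosome and locus were read from the identifiers, as is usual for MG-20 models. Counting CVs cover counting error only.

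Named transcripts are the 6 members with the lowest CV, the 4 with the highest mean CPM, the 2 with the highest and the 2 with the lowest group ratio, the 2 on either side of the limit, and up to 4 kept under every scaling. Changed transcripts of members' loci would also have been named, but there were none. The members, the rule and the tests were chosen with earlier results of these data known. Functional classes were not counted, since no descriptions could be joined.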

Additional observations from a re-analysis of the deposited data

How the results depend on the processing

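The members were retained in the rebuilt list of 100 in these numbers: 3 with TMM, 4 with RLE and 30 with upper-quartile scaling, 99 in FPKM, 98 by SD of log2(CPM + 0.5), 88 by range over mean, 84 with a minimum of 10 CPM, 47 with a minimum of 50 CPM, 45 with fractional counts allowed, and 24 by the larger within-group CV. Leaving out 1 library kept 63 to 87, and leaving out a replicate number in both groups kept 58 (number 1), 50 (number 2) and 65 (number 3). Lists of 50 and 200 are nested in or around the list of 100. TMM over whole counts or over fractional counts alone, added after seeing the data, kept 68 and 0. The median log2 difference of the same members was -0.35 with TMM, -0.34 with RLE, -0.21 with upper-quartile scaling and -0.43 with TMM over fractional counts. Over the eligible transcripts it was, in the same order, -0.41, -0.41, -0.25 and -0.51. In rebuilt lists the median log2 difference was 0.050 by the larger within-group CV and -0.052 to 0.027 without 1 library. Without a replicate number in both groups it was 0.045 (number 1), -0.053 (number 2) and -0.014 (number 3). Members called lower numbered 0 with library size alone and 6 to 34 without 1 library, in place of 43. With the replicate number as a block they numbered 20, and calls over all transcripts were 14127 higher and 13822 lower. Deviations of same-numbered libraries correlated at -0.10, 0.10 and -0.15 over eligible transcripts. Between differently numbered libraries the correlations ran from -0.25 to 0.29. With so few libraries these values cannot decide whether same-numbered libraries shared a batch, and that was not tested. The CV of the named transcripts moved by over 1.5 times in 44 of 80 pairs of a transcript and a scaling. Counts over all transcripts and neighbours called stayed within 1.5 times under every alternative run. Where causes of these moves are not given by the construction of the setting, the cause was not tested. Depth limits the CV of members near 20 CPM.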
